A study of Mus musculus with 2 samples.

Results

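Transcripts annotated for nonsense-mediated decay are the messenger RNA forms that the GENCODE annotation expects the cell to destroy because their reading frame ends too early. Their levels were examined in the adrenal gland, an organ with a steroid-producing cortex around a medulla of catecholamine-secreting chromaffin cells. The members were chosen by their annotated transcript type and by a measured value, a mean gene TPM (a length-scaled level that sums to the same total in every library) of 5 or more over both libraries. Of 141767 transcripts in the tables, 7186 carried the annotation, and 4999 of these, in 3022 genes, were members. The samples were 2 total RNA libraries, treated as biological replicates, from B6CASTF1/J male mice at an age of 4 days, an F1 hybrid of a laboratory and a wild-derived strain. Each was prepared from 300 ng of RNA, reduced in ribosomal RNA, with ERCC spike-ins. No treatment or second condition was present, so each result below is a description of these libraries. No test between conditions was possible, and a difference between replicates compares 2 libraries.

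Nonsense-mediated decay is a surveillance pathway of translation. Splicing leaves an exon junction complex on the messenger RNA just before each junction, and the first ribosome removes those it passes. A ribosome that stops well before the last junction leaves a complex behind, and the helicase UPF1 with the SMG factors then directs the RNA to degradation. Many splicing factors use the pathway on their own transcripts by including a short exon that carries a stop codon, often called a poison exon. A steady-state level is what remains after decay and does not show how much was made.

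Annotated genes received 32222603 counts in replicate 1 and 30283316 in replicate 2 by alignment, of which members held 1.49% and 1.57%. Each library had an alignment-based pair of gene and transcript tables and an alignment-free transcript table, so each transcript had values in 4 tables. All 7 cortical markers and all 6 medullary markers were at 1 TPM or more. They were all lower in replicate 2, with sums of 6581 against 8560 TPM and 1915 against 2121 TPM. Replicate 2 stood apart, since its 10 liver markers summed to 5968 TPM against 231 TPM in replicate 1, and all 10 were higher. Its 4 erythroid and 4 skeletal muscle markers were higher too, with sums of 3124 against 1699 TPM and 787 against 422 TPM. Where a result rests on replicate 2, its value in replicate 1 stands beside it.

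The sequences that end the reading frame are shown first, for members of splicing factor genes, because they are the feature by which these transcripts were annotated. Each line gives the coding stretch from the start of the exon that holds the stop codon through the stop codon, 5′ to 3′, with the stop codon in capitals. They were read from the GENCODE M21 transcript sequences (mm10). The first 8 followed a rule on isoform percent, defined below, and the last 4 were added after values were seen, to complete the SR protein and splicing kinase members described below.
Hnrnpu-206 (chr1:178325281-178325313, minus strand): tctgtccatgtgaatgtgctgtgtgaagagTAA
Clk1-210 (chr1:58419713-58419733, minus strand): atgaaattgttgatacttTAG
Hnrnpa1-203 (chr15:103243959-103244014, plus strand): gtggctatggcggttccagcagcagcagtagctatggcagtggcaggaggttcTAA
Srsf6-201 (chr2:162932815-162932966, plus strand): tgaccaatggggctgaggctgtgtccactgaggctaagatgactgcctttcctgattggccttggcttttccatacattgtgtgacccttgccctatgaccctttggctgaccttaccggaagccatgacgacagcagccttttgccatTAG
Tra2b-206 (chr16:22259181-22259261, minus strand): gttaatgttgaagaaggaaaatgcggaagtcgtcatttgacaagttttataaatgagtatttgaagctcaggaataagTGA
Tardbp-228 (chr4:148620716-148620732, minus strand): gtcaagaaagatctTAA
Luc7l-206 (chr17:26257926-26257938, plus strand): cgcatggattTAG
Hnrnpd-208 (chr5:99962545-99962612, minus strand): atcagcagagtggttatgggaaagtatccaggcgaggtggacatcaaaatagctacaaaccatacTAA
Tra2a-202 (chr6:49252965-49253108, minus strand): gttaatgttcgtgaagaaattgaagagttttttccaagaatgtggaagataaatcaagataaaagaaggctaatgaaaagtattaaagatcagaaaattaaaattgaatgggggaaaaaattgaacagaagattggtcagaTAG
Srsf3-201 (chr17:29039454-29039487, plus strand): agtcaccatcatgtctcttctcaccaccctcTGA
Srsf4-204 (chr4:131884295-131884390, plus strand): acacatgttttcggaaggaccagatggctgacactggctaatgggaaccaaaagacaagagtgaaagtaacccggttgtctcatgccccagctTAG
Srsf1-204 (chr11:88049977-88050015, plus strand): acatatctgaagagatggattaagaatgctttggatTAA
In Tra2b-206, Tra2a-202, Srsf3-201 and Srsf4-204 the stop lay in an exon that overlapped no exon of a coding transcript (annotated protein_coding) of the gene. In Clk1-210, Tardbp-228, Luc7l-206, Hnrnpu-206 and Srsf1-204 it lay within sequence that coding transcripts also hold as exon, at a position that is not their stop. Hnrnpa1-203, Hnrnpd-208 and Srsf6-201 ended at a stop codon that an annotated coding transcript of the gene shares, followed in these members by further junctions. For Srsf6-201 that coding transcript was a short form other than the highest coding transcript of the gene, Srsf6-203. Srsf1-204, Srsf4-204 and Hnrnpd-208 were annotated with a coding start not found, so their frames begin upstream of what the annotation holds.

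Across all members, 4997 had an annotated stop codon, and all 4997 read TAA, TAG or TGA in the transcript sequence. TGA was the most frequent, at 58.0%, with TAA at 22.1% and TAG at 20.0%. The stop lay over 50 bases before the last exon junction in 4964 members (99.3%), at a median distance of 319 bases and with a median of 3 junctions after it. Of 8636 coding transcripts of the same genes with a stop codon and a junction, 64 (0.741%) had such a stop. This separation is built into the annotation and is not a measurement of decay. The stop codon was at another position within sequence that is exonic in a coding transcript in 3020 members. It was in an exon that overlaps none of a coding transcript in 1036, and in the extended or unspliced part of a coding exon in 634. A further 302 shared the stop codon of a coding transcript. The remaining members were 5 in genes with no coding transcript (Gm49325-201, Gm20605-201, Gm20716-201, Gm42715-201 and Gm42715-202) and 2 with no annotated stop (Rapgef1-207 and Cwf19l1-208). Many models were partial: 1575 (31.5%) had a coding start that was not found.

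**Figure D1:**
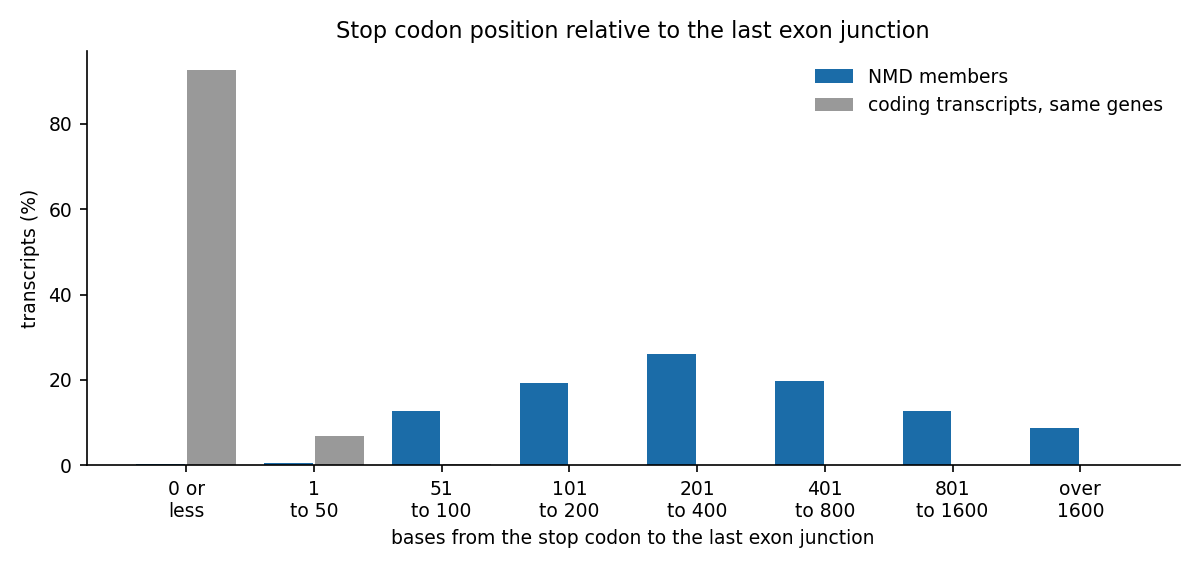
Percent of transcripts (vertical axis) by the number of bases from the stop codon to the last exon junction (horizontal axis), for the 4997 members with a stop codon in blue and 8636 coding transcripts of the same genes in grey. Members lie mostly over 50 bases before it, while 92.5% of the coding transcripts have the stop at or after the last junction.

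Most members took a small part of their gene's output. The isoform percent, a transcript's share of its gene's TPM, had a median over members of 1.62% in replicate 1 and 1.87% in replicate 2 in the alignment-based tables, and 2.86% and 3.49% in the alignment-free tables. The upper quartile of the library mean was 7.36% and 9.97% in the 2 kinds of table. Members listed at 0 TPM in both libraries numbered 1278 in the alignment-based and 963 in the alignment-free tables, and 576 were at 0 in all 4. For the 1278, the median upper bound of the deposited TPM interval was 0.640 TPM, so a listing at 0 does not show absence. At the other end, 983 members (19.7%) had a mean isoform percent of 10 or more in the alignment-based tables, beside 27.7% of all 27376 transcripts of the same genes. Without alignment 1248 (25.0%) did, beside 30.3% of all. Both kinds of table gave 10% or more for 699 members (14.0%) in 659 genes, beside 20.7% of all transcripts.

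Set beside the other transcript types of the same genes, members stood below coding transcripts. Against transcripts with retained introns the order depended on the measure. Coding transcripts had median isoform percents of 6.15% and 6.97% in the 2 kinds of table, against 1.93% and 3.32% for members. Retained intron transcripts had 4.12% and 3.87%, yet a smaller share of them reached 10%, at 16.9% and 17.6%. Members summed to 10.9% of their genes' TPM in replicate 1 and 11.0% in replicate 2 in the alignment-based tables, and to 13.0% and 13.2% in the alignment-free tables. The member share was close in both libraries while the retained intron share was 12.7% in replicate 1 and 14.9% in replicate 2. Members are shorter than coding transcripts, with median lengths of 1024 and 1777 bases. TPM divides counts by length, so a shorter transcript has fewer counts at the same TPM. By counts, members took 7.76% and 8.02% of their genes in the alignment-based tables.

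**Figure D2:**
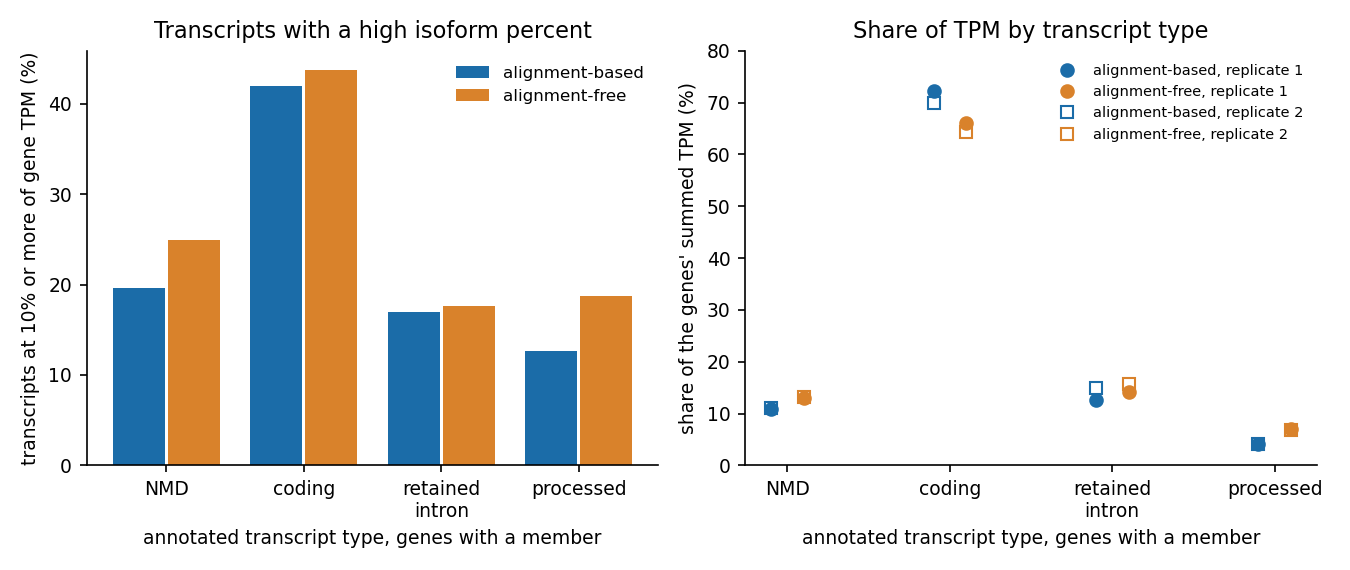
Left, percent of transcripts at 10% or more of gene TPM (vertical axis) by annotated type (horizontal axis) in genes with a member, from the library mean. Right, each type's share of the genes' summed TPM per library and table kind: members lie between 10.9% and 13.2%, far below the coding transcripts.

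The class of the stop codon went with different shares at 10%. Members that share a stop codon with a coding transcript reached 10% in 29.8% of cases in the alignment-based and 30.8% in the alignment-free tables. Members whose stop lies in an exon absent from coding transcripts did so in 13.4% and 23.1%. Those with the stop elsewhere in coding exon sequence gave 20.4% and 24.8%, and made up 68.0% and 67.6% of all member TPM in replicates 1 and 2 of the alignment-based tables. The number of transcripts a gene has moved with these shares too. In genes with 1 to 3 other transcripts 34.9% of members reached 10% in the alignment-based tables, against 13.9% where 8 or more others shared the gene. Member length did so as well, with 13.4% at 500 bases or less and 26.0% at over 2000 bases by alignment. Median length was 1851 bases for members that share a stop codon and 940 bases for those with the stop in an exon absent from coding transcripts. The parts of transcript number and of length in the differences between classes were not tested.

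A small group of members was the highest transcript of its gene. This held in all 4 tables for 91 members (1.82%), beside 6.94% of all transcripts of these genes. Members together took 50% or more of gene TPM in all 4 tables in 48 genes, and under 1% in both kinds in 395 genes. The following examples were named after their values were seen. Idh3a-204, of the gene for a subunit of mitochondrial isocitrate dehydrogenase, stood at 35.2 and 41.0 TPM in replicates 1 and 2, which was 50.6% and 51.9% of the gene, with 71.6% and 70.5% in the alignment-free tables. Pnpla2-201, of the gene for adipose triglyceride lipase, stood at 44.0 and 41.0 TPM, 52.4% and 56.4% of the gene, with 46.2% and 50.2% in the alignment-free tables. Angptl4-202, of the gene for a secreted lipoprotein lipase inhibitor, took 74.0% and 72.8%, with 68.2% and 66.7% alignment-free. In each of these 3 genes the member exceeded every coding transcript in both libraries.

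By level in the alignment-based tables, the highest member was Ppia-201, of the gene for the prolyl isomerase cyclophilin A, at 495 and 533 TPM. It was listed at 86.3% and 87.1% of the gene in the alignment-based tables and at 45.5% and 47.6% in the alignment-free tables. The libraries agreed and the table kinds did not, and the same held for Rpsa-206 and Ndufa3-204. Rpsa-206, of a small-subunit ribosomal protein gene, was at 305 and 347 TPM, 80.3% and 81.2% of the gene, against 32.2% and 31.1% alignment-free. Ndufa3-204, of an accessory subunit gene of respiratory complex I, was at 183 and 179 TPM and 89.6% and 89.9%, against 43.3% and 46.1%. Both exceed 30% of their gene in every table. Without alignment, however, the coding transcript Rpsa-204 was above Rpsa-206, at 64.6% and 65.7% of the gene against 7.87% and 6.77% by alignment. The coding transcripts of Ppia together took 0.51% and 0.83% by alignment and 23.5% and 21.9% without. Among members of highest isoform percent, Mmaa-202 (a gene of mitochondrial cobalamin metabolism) took 93.2% and 93.6% of the gene, with 94.4% and 94.3% alignment-free. Mnat1-203, of the assembly factor of the CDK-activating kinase, took 88.5% and 86.4%, with 88.3% and 86.1%. Colec12-201, of a scavenger receptor gene, took 84.0% and 90.0%, with 89.9% and 88.6%. Mmaa and Mnat1 are thus cases in which all 4 tables place over 80% of a modestly expressed gene in a transcript annotated for decay, at 5.17 to 6.55 TPM for Mmaa-202 and 9.63 to 10.7 TPM for Mnat1-203 in the alignment-based tables. Mrps14-201, of a mitochondrial ribosomal protein gene, was at 92.5% and 90.6% by alignment and at 3.47% and 10.1% without.

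SR proteins, which bind exons and promote their use, are the textbook users of poison exons. They were listed with the kinases that phosphorylate them. Of 18 listed genes, 16 were at the floor and 15 (93.8%) had a member, beside 28.7% of all genes at the floor. The list held 26 members in all. At 10% or more were 8 in each kind of table and 7 in both, a share of 30.8% in each kind. Beside this stood 27.7% and 30.3% of all transcripts of member genes, and 19.7% and 25.0% of all members. Clk1-210, of a kinase that phosphorylates SR proteins, was at 17.1 and 20.4 TPM, 31.6% and 29.5% of the gene, with 30.0% and 31.1% alignment-free. It was the 1 member of the list that was highest of its gene in all 4 tables, and the coding transcripts of Clk1 together took 7.17% and 4.06% in the alignment-based tables. Clk1-210 has no base and no junction that other transcripts of the gene lack, so its level depends on how shared reads are divided. Srsf6-201 was at 21.9 and 22.4 TPM, 28.7% and 26.0% of the gene, with 34.9% and 31.6% alignment-free. Srsf3-201 was at 15.1 and 15.7 TPM, 23.5% and 18.8%, with 28.3% and 24.1%. In Srsf6 and Srsf3 the member stood beside coding transcripts that together took 51.1% and 57.4%, and 30.4% and 31.3%, by alignment. Srsf1-204 was at 16.1 and 16.5 TPM, 13.6% and 15.6%, with 10.8% and 14.2%. Tra2b-206 was at 11.0 and 13.1 TPM, 23.3% and 27.8%, with 13.6% and 25.3%. Tra2a-202 was at 4.91 and 5.67 TPM, 18.2% and 27.3%, with 36.6% and 52.5%. Tra2a and Tra2b encode paralogous splicing activators, and both members were higher in replicate 2 by isoform percent in both table kinds. Srsf4-204 was also higher there, at 3.91 and 5.26 TPM, 14.2% and 16.7%, with 12.8% and 17.3%. Clk2-204 reached 10% in the alignment-based tables only and Clk4-212 in the alignment-free tables only.

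The hnRNP proteins bind nascent RNA and often oppose the SR proteins. With other RNA-binding splicing factors they formed a list of 41 genes, all at the floor. Of these, 30 (73.2%) had 79 members, beside 28.7% of all genes at the floor. At 10% or more were 13 (16.5%) by alignment, 14 (17.7%) without and 8 in both, shares below those of all transcripts of member genes. The first 2 were also below the 19.7% and 25.0% of all members. Hnrnpu-206, of the scaffold attachment factor hnRNP U, was at 89.5 and 76.3 TPM and 49.6% and 45.3% of the gene, with 44.9% and 40.5% alignment-free. Tardbp-228, of the gene for TDP-43, was at 30.8 and 23.3 TPM, 24.8% and 23.5%, with 21.1% and 19.0%. These 2 were the highest transcripts of their genes in all 4 tables. Hnrnpa1-203 was at 34.8 and 37.5 TPM, 29.4% and 26.2%, with 30.9% and 29.6%. Its stop codon is the one of the coding transcript, with 2 junctions after it, the last 90 bases downstream. Of the other members at 10% in both kinds, Luc7l-206 and Hnrnpd-208 were higher by alignment. Hnrnpll-203 was higher without it, at 25.7% and 20.0% against 34.5% and 30.3%. Hnrnpdl-205 and Tardbp-208 lay between 9.41% and 22.9% in the 4 tables. Hnrnpu-209 was at 17.2% and 14.7% by alignment and at 0.0324% and 0% without, on a model of 351 bases whose coding start was not found. Srrm2-203, on a model of 494 bases, was at 12.1% and 12.2% against 3.10% and 2.63%.

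**Figure D3:**
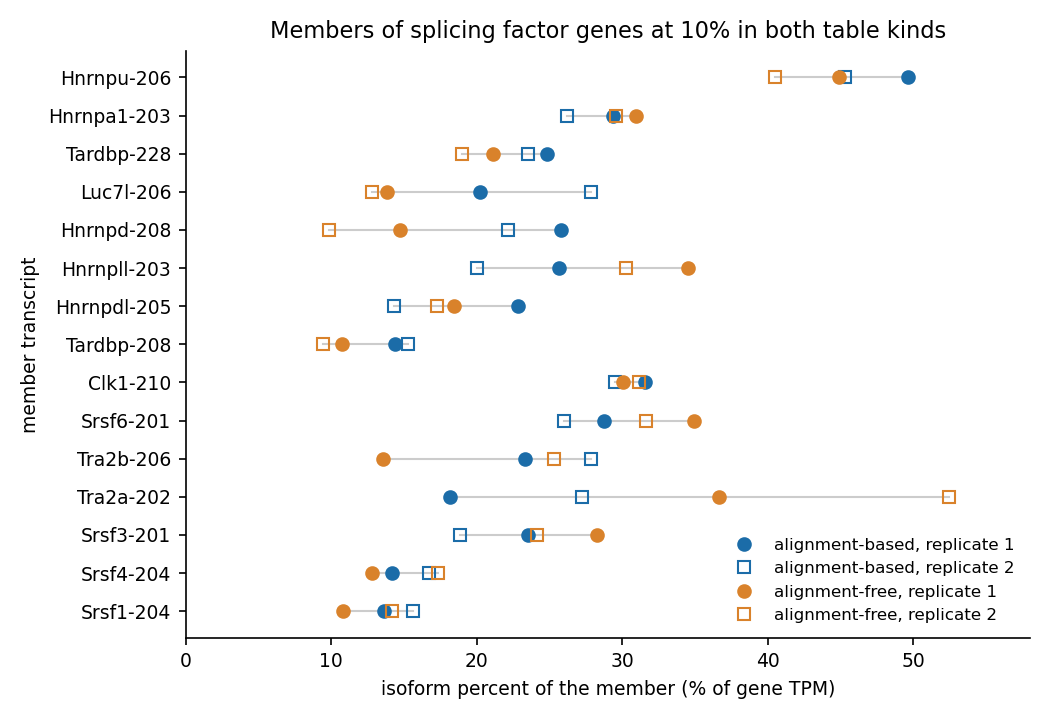
Isoform percent (horizontal axis, percent of gene TPM) of the 15 members of splicing factor genes at 10% or more in both table kinds, 1 point per library and table kind. The lower 7 are of SR protein and kinase genes and the upper 8 of hnRNP and related genes; Clk1-210 and Hnrnpa1-203 vary little over the 4 tables and Tra2a-202 varies most.

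Of the genes of the decay pathway itself, all 23 listed were at the floor, and 5 (21.7%) had 7 members, beside 28.7% of all 10533 genes at the floor. None of the 7 reached 10% by alignment, beside 27.7% of all transcripts of member genes and 19.7% of all members. Without alignment 3 (42.9%) did (Magohb-202, Magohb-203 and Smg1-204), beside 30.3% and 25.0%. Shares of so few members are coarse. Magohb encodes an exon junction complex core protein. Magohb-202 was at 0 and 1.10 TPM by alignment and at 6.96 and 7.22 TPM without, 30.3% and 29.0% of the gene. Smg5-202, of a factor that recruits decay enzymes, was at 0.200 and 1.28 TPM by alignment and 0.459 and 2.30 TPM without, higher in replicate 2 in both. Smg6-202, of the endonuclease, was at 0.140 and 0 TPM.

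Genes of the hormone pathways of the gland were looked at next. Of 24 steroid synthesis and cholesterol supply genes, all at the floor, 5 (20.8%) had 6 members, beside the 28.7% of all genes. None of the 6 was at 10% by alignment, where 19.7% of all members and 27.7% of all transcripts of member genes were. Without alignment 1 was at 10% (16.7%, beside 25.0% of all members and 30.3% of all transcripts of member genes). This was Mrap-202, of the accessory protein that carries the ACTH receptor to the cell surface. It was at 6.75 and 3.65 TPM by alignment, 6.30% and 4.47% of the gene, and at 61.6 and 42.3 TPM without, 24.4% and 22.6%. In both table kinds it was lower in replicate 2, where the gene was at 81.5 TPM against 107 TPM. Mrap-204 was at 3.14% and 3.67% by alignment and 5.84% and 6.89% without. Lipe-206, of hormone-sensitive lipase, was at 0.440% and 0.730% with 5.37% and 9.94%. Of 17 chromaffin genes at the floor, Th alone (5.88%) had members, beside the 28.7% of all genes. These were Th-203, Th-204 and Th-205. Th-203, of tyrosine hydroxylase, was listed at 0 in both libraries by alignment, with deposited upper bounds of 0.646 and 0.653 TPM, and at 59.3 and 32.3 TPM without alignment. Th-204 was likewise at 0 by alignment and at 28.2 and 17.7 TPM without, while Th-205 was at 0 and 0.320 TPM by alignment and at 0 without.

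Ribosomal protein and respiratory chain genes held members that were high in TPM and unlike between the table kinds. Of 84 ribosomal protein genes at the floor, 19 (22.6%) had 25 members, beside 28.7% of all genes at the floor. At 10% were 7 (28.0%) in each kind and 5 in both, near the share of all transcripts of member genes. Of all members 19.7% were at 10% by alignment and 25.0% without. Rpl12-201, the list's member that was highest of its gene in all 4 tables, was at 41.2 and 58.0 TPM by alignment, 51.3% and 59.8%. Without alignment it was at 246 and 242 TPM, 72.2% and 69.1%. Of 95 respiratory chain genes at the floor, 22 (23.2%) had 27 members. At 10% by alignment were 9 (33.3%), beside 27.7% of all transcripts of member genes and 19.7% of all members. Without alignment 11 (40.7%) were, beside 30.3% and 25.0%, and 7 were in both kinds. Highest of their genes in all 4 tables were Ndufa3-204, Ndufs4-204 and Sdhaf2-206. Ndufs4-204, of a complex I subunit gene, was at 33.4 and 32.7 TPM, 50.2% and 43.4%, with 60.0% and 44.8%. Atp5f1-203, of an ATP synthase subunit gene, was at 50.4 and 56.1 TPM, 46.2% and 48.3%, with 37.0% and 42.5%. Ribosomal protein genes have many near-identical processed copies in the genome, with which either kind of table could exchange reads, so their values are uncertain.

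Polyamine control genes were listed because several of them regulate their own expression through translation or splicing. All 8 were at the floor, and 4 (50%) had 6 members, beside 28.7% of all genes at the floor. In each kind 1 of the 6 (16.7%) was at 10%, beside 27.7% and 30.3% of all transcripts of member genes and 19.7% and 25.0% of all members. It was Sms-204, of spermine synthase, in both kinds. Sms-204 was at 12.3% and 22.1% by alignment and 27.5% and 31.8% without, on a gene of 7.84 and 9.22 TPM. Odc1-205, of ornithine decarboxylase, was at 7.16% and 8.84%, with 5.63% and 6.50%. Azin1-205, of antizyme inhibitor, was at 6.13% and 5.19%, with 9.26% and 8.13%. Sat1-207, of the polyamine acetyltransferase, was at 2.16% and 2.69%, with 2.71% and 3.77%.

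How far the table kinds agree sets how far any single member can be read. Of 2806 members at 1 TPM or more in either kind, 788 (28.1%) were within 2-fold of each other, beside 45.1% of all transcripts of genes at the floor. Fold differences here carry 0.1 TPM added to each value. The scales differ, since the median gene was lower by alignment by -0.88 on the log2 scale. After both were rescaled to the sum over protein-coding genes, a choice made after seeing the data, 1319 members (47.0%) were within 2-fold, beside 61.9%. By counts in place of TPM, with 1 count added, 1325 (47.2%) were, beside 61.6%. The gene totals agreed far better, with 3006 of the 3022 genes (99.5%) within 2-fold after rescaling. Gene totals were thus within 2-fold far more often than members, though most members lie at far lower levels than their genes. How each gene was divided among its transcripts was not compared gene by gene. After rescaling 1087 members were over 2-fold lower by alignment and 400 over 2-fold higher. Listed at 0 by alignment and at 1 TPM or more without were 310, and the reverse held for 95.

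**Figure D4:**
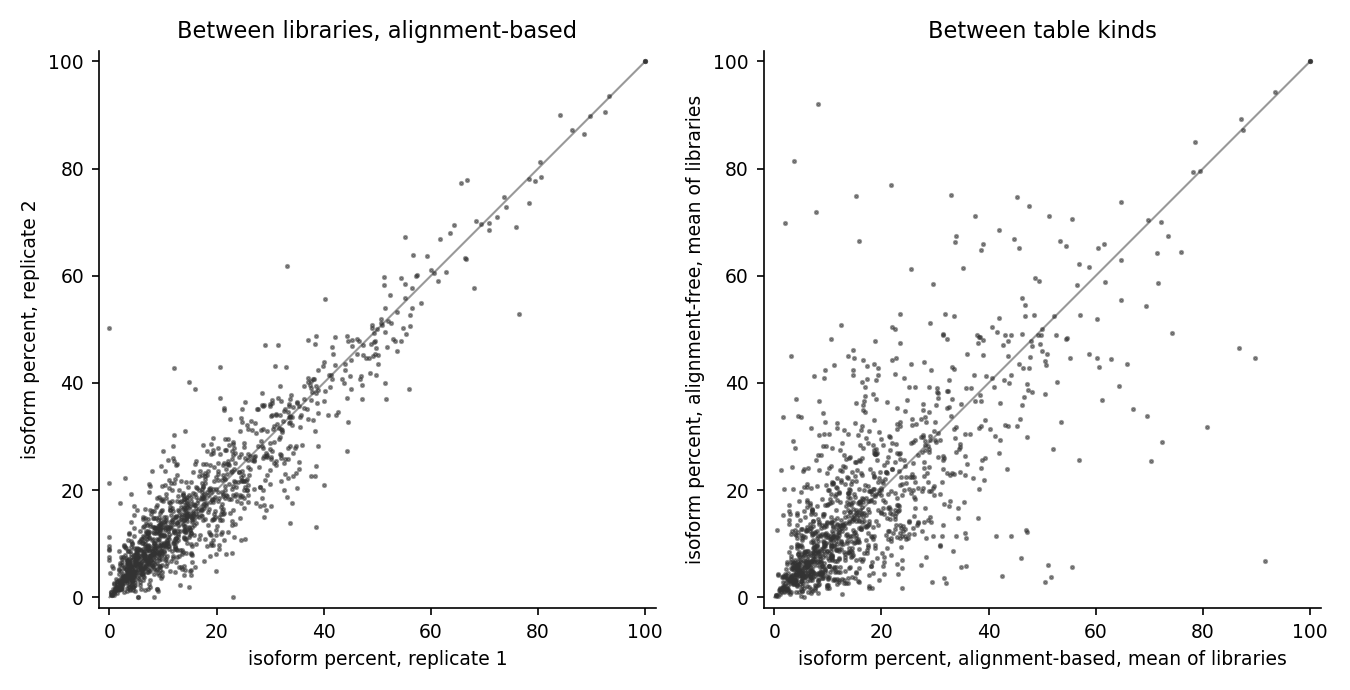
Isoform percent of the 1223 members at 1 TPM or more in both table kinds, replicate 2 against replicate 1 by alignment (left) and alignment-free against alignment-based library means (right), with the line of equality. Points spread further from the line on the right, where the median absolute difference is 4.89 percentage points, than on the left, where it is 2.82.

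The libraries were closer to each other than the table kinds were. Over the 1223 members at 1 TPM or more in both kinds, the isoform percent differed between libraries by a median of 2.82 percentage points by alignment and 2.86 without, and between table kinds by 4.89. Spearman's rho over all 4999 members was 0.775 and 0.818 between libraries and 0.593 between kinds, as a description, since transcripts of 1 gene share reads and both kinds of table come from the same libraries. Short members agreed least. After rescaling, 18.9% of members of 500 bases or less were within 2-fold, 38.8% of those of over 500 to 1000 bases, 53.7% of those of over 1000 to 2000 bases and 59.1% of longer ones. The effective length that enters TPM was the length minus 99.0 bases by alignment and minus 326 and 324 bases without. By counts, which are estimates not divided by it, the shares were 29.6%, 41.8%, 52.5% and 54.4%. How far the estimated counts themselves depend on effective length was not tested. Members with over 100 bases that no other transcript of the gene holds agreed within 2-fold in 62.3% of cases after rescaling, against 40.9% of those with neither a base nor a junction of their own. Clk1-210, Srsf3-201, Ndufa3-204 and Pnpla2-201 were among the latter.

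**Figure D5:**
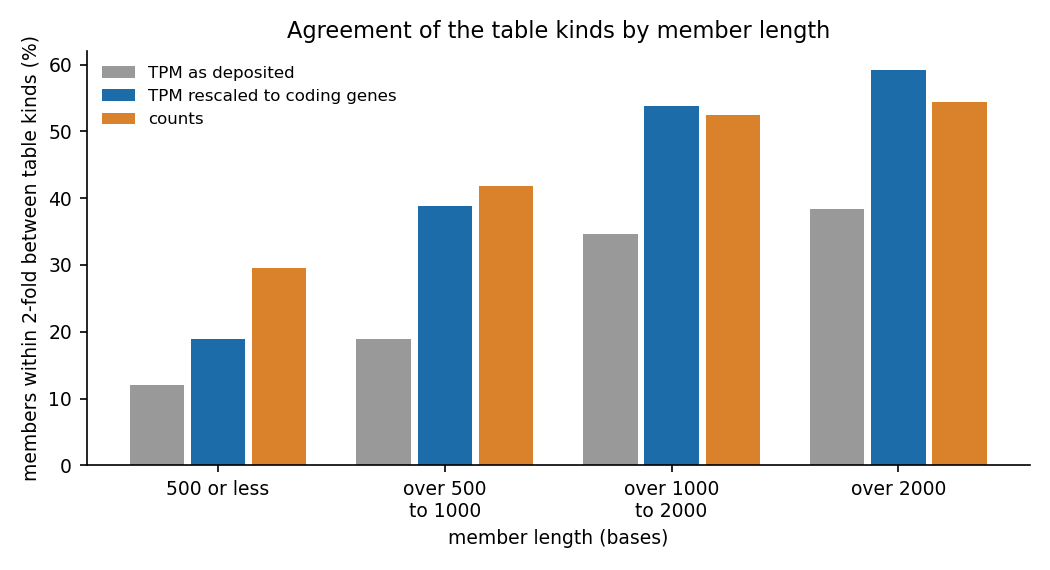
Percent of members within 2-fold between the table kinds (vertical axis) by member length in bases (horizontal axis), for TPM as deposited, TPM rescaled to protein-coding genes, and counts. The share rises from the shortest to the longest members on each scale, from 18.9% to 59.1% for rescaled TPM.

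The members furthest apart were listed at 0 in 1 kind of table or close to it. Lower by alignment were Ndufa6-204, Serbp1-209, Iscu-205, Ndufb8-205 and Dlst-209, all at 0 TPM in both libraries by alignment. Serbp1-209, of an mRNA-binding protein gene, was at 116 and 118 TPM without alignment, 40.4% and 41.5% of the gene. Its deposited upper bounds by alignment were 0.667 and 0.727 TPM. Higher by alignment were, among others, Adh1-202, Rpl13a-202, Rab11b-204 and Eef1b2-208. Adh1-202, of alcohol dehydrogenase, was at 251 and 229 TPM, 13.0% and 12.9% of the gene, and at 0 in both libraries without alignment. Rab11b-204, of a recycling endosome GTPase, was at 48.5 and 50.2 TPM and likewise at 0. In each of the members named here the libraries agree on which kind of table is near 0.

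Few members differed between libraries. Of 1223 compared, 44 (3.60%) were over 2-fold higher in replicate 2 in both table kinds, beside 3.16% of all transcripts that passed the same filter. Over 2-fold higher in replicate 1 were 18 (1.47%), beside 0.977%. Over all 4999 members, the deposited TPM intervals did not overlap between libraries for 114 (2.28%), beside 6.84% of all transcripts of genes at the floor. These sets were not matched for level, and 1278 of the members were at 0 TPM in both libraries by alignment. The sources used here do not state the confidence level of the intervals. In 3 of the 44 the gene itself was over 2-fold higher in replicate 2 (Serpinc1, Cfb and Serpinf1), and in none of the 18. Serpinc1 and Cfb, at 3.62 and 4.32 TPM in replicate 1, passed the floor on the mean only through replicate 2. The filter of 1 TPM was likewise on the mean, so members at 0 in 1 library passed it through the other. Serpinc1-204, of the liver-made antithrombin, was at 1.04 TPM in replicate 1 and 37.1 TPM in replicate 2, while the gene was at 3.62 and 104 TPM. Its isoform percent was 28.6% and 35.7%, so the transcript moved with the gene and with the liver markers. In these tissue libraries more cells of a type and more RNA per cell cannot be told apart. Abraxas1-209, of a DNA repair scaffold gene, was at 0 and 4.40 TPM by alignment and at 0.000112 and 5.37 TPM without, on a gene of 7.16 and 8.76 TPM. Its deposited intervals still overlap, with an upper bound of 2.51 TPM in replicate 1 and a lower bound of 1.09 TPM in replicate 2. Ankzf1-206 was at 0 and 2.06 TPM, with 0 and 3.26 without. BC004004-225 and Slc22a17-204 were likewise at 0 in replicate 1 in both kinds, with deposited intervals that overlap. Higher in replicate 1 was Slc4a3-204, of an anion exchanger gene, at 4.57 and 0.750 TPM by alignment and 4.63 and 0.636 TPM without. Unc45a-208 was at 3.72 and 0.01 TPM by alignment, yet its deposited intervals of 0.652 to 5.58 and 0.000611 to 3.63 TPM overlap. Herpud1-204, Mark3-205 and Abhd4-203 were the other members furthest apart this way. The deposited intervals did not overlap between libraries for 16 of the 62 members over 2-fold apart. Of the 62, 11 were listed at 0 in a table in the library where they were lower.

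Just above the floor on gene level were Unc80-202, Myoz2-203 and Fam20a-204. Unc80-202 was at 1.06 and 1.38 TPM, 21.6% and 27.2% of the gene by alignment and 4.50% and 11.0% without. Just below the floor, and not members, were Rasl12-204, Tmco6-205 and Cdkn3-204, in genes of 4.985 to 4.99 mean TPM. Rasl12-204 was at 0.290 and 1.26 TPM.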

How the data were processed

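Total RNA of 2 libraries in 1 group was measured. Per the labels, both carry 1 donor label, while the sample characteristics number different males; they were treated as biological replicates, and the spread between them may be partly technical. Per the descriptions deposited with the samples, the tables were made per library against mm10 and GENCODE M21. The sources used here do not name the programs, versions or settings. The alignment-based tables hold, per the file headers, expected counts, TPM, the isoform percent (IsoPct) and bounds of a TPM interval. The alignment-free tables hold, per the file headers, estimated counts and TPM, and their isoform percent was computed here from the deposited TPM. Deposited and recomputed isoform percents of the alignment-based tables differed by at most 0.987 percentage points. Since both kinds of estimate share reads among transcripts, values of transcripts that overlap are not independent.

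Transcripts were matched by identifier; all 7186 were found in both kinds of table. The floor was a mean of 5 TPM in the gene tables. Log2 ratios carry 0.1 TPM, or 1 count for counts. Stop codons, junctions and sequences came from the GENCODE M21 annotation. Named transcripts were the 10 of highest TPM, the 10 of highest isoform percent at 1 TPM or more in each table, the 4 of highest TPM per gene list, the 5 furthest apart each way between table kinds and between libraries, 3 each side of the floor, and all where a count was 5 or fewer; other transcripts were named after their values were seen. A few that the rule names are not reported here. The members and the gene lists were chosen with earlier results of these data known. Fold calls and distances were checked on simulated data. Python 3.11.15 with pandas 2.3.3, numpy 2.4.6 and matplotlib 3.10.9 was used.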

Additional observations from a re-analysis of the deposited data

How the results depend on the processing

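Of 36 alternatives to 8 results, 24 left the value within 1.5 times (counts) or within 1 SD between libraries (other values). The 24 include leaving out either library for the percent of gene TPM. This could not move it past 1 SD, since its mean and SD come from the same 2 values. The alternatives that did not stay within these limits are these. The median isoform percent of members was 1.93 and became 3.32 in the alignment-free tables, 4.50 over members at 0.1 TPM or more and 1.62 without replicate 2. The percent of gene TPM in members was 11.0 and became 13.1 in the alignment-free tables, 7.89 by expected counts and 8.48 by alignment-free estimated counts. Members within 2-fold between table kinds numbered 788, and 1308 with 1 TPM added, 2044 over all members, 1319 after rescaling and 1325 by counts, the last 2 chosen after seeing the data. Members over 2-fold between libraries numbered 62, and 29 with 1 TPM added and 4 at a mean of 5 TPM or more (Adck5-210, Cdipt-203, Serpinc1-204 and Serpinf1-208).
Leaving out replicate 1 or replicate 2 gave ranges of 4897 to 5051 members, a median isoform percent of 1.62 to 1.87, 967 to 1037 members at 10%, 204 to 209 highest transcripts, 10.9% to 11.0% of gene TPM, and 735 to 836 members within 2-fold between table kinds. No paired analysis was possible because the series has 1 group. With 2 libraries, no spread beyond their difference can be given.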

Other observations

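The gene with the most members was Slc4a7, of a sodium bicarbonate cotransporter, with 18, each below 10% in the mean of the libraries in both table kinds. In Ndufs4, Ndufs4-202 was at 25.1% and 28.0% and Ndufs4-204 at 50.2% and 43.4% of the gene by alignment, while the coding transcripts together took 18.6% and 23.4%. In Rpl27a, Rpl27a-205 was at 26.4 and 34.8 TPM by alignment, 29.9% and 36.0% of the gene. Without alignment it was at 757 and 785 TPM, 75.0% of the gene in both libraries. By these values the total of Rpl27a was also far higher without alignment, so more than the division among transcripts differed. Adck5-210 took 6.57% of its gene in replicate 1 and 14.8% in replicate 2 by alignment, and 9.14% and 18.8% without, on a gene of 75.1 and 76.3 TPM. These were named after their values were seen.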
